A study of Mus musculus with 6 samples.

Results

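The colony-stimulating factor Csf1 and the receptors of this cytokine family (Csf1r, Csf2ra, Csf2rb, Csf2rb2, Csf3r and Flt3) were followed in mouse liver injured by ischemia and reperfusion. These 7 genes were chosen by name, as rows of the deposited tables, out of 15454 genes in the count table. RNA sequencing was performed on livers of male C57BL/6 mice, 8 to 10 weeks old, after warm I/R (ischemia followed by reperfusion) of 75% of the liver. Of these mice, 3 received vehicle (the I/R group, called vehicle livers) and 3 received ginsenoside Rk2, a saponin of ginseng (the I/R+Rk2 group, called Rk2 livers), and each agent was given 2 days ahead of the operation and again as perfusion was restored. Both groups thus carried the injury, a sham-operated liver was not analysed here, and RNA came from whole tissue with all its cell types.

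Colony-stimulating factors are cytokines that tell bone marrow cells to become granulocytes, monocytes and macrophages and that keep those cells alive and active in tissues. CSF1 and IL-34 act through CSF1R, a receptor tyrosine kinase of monocytes and macrophages, and the related kinase FLT3 marks early progenitors and dendritic cells. GM-CSF binds an alpha chain encoded by Csf2ra together with the beta chain encoded by Csf2rb, which IL-3 and IL-5 receptors share, while G-CSF binds CSF3R, the main receptor for neutrophil production and survival. In the injured liver these receptors are carried mostly by resident macrophages (Kupffer cells) and by neutrophils and monocytes arriving from blood.

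Counts summed to between 16809613 and 35618074 per library. Normalised counts are given as counts per 1000000 (CPM) of the library size after TMM scaling (trimmed mean of M values), and 3 counts stood for 0.0888 to 0.184 CPM. A gene passed the threshold when its edgeR FDR (the adjusted p) was below 0.05 and it differed more than 2-fold. The log2 fold change (log2FC) sets Rk2 livers over vehicle livers and carries its standard error (SE), and means carry the SD of the 3 livers of a group. Over the 12411 genes tested, the median log2FC was -0.01, with 6154 genes higher and 6257 lower. Summed CPM of 5 hepatocyte markers, 78.5% to 81.7% of it from the albumin gene Alb, was 55606 to 66093 in vehicle livers and 87691 to 108558 in Rk2 livers, without overlap, while the hepatocyte factor Hnf4a went the other way, from 660 ± 20.6 to 460 ± 44.2 CPM (log2FC -0.52, edgeR FDR = 0.00583). The part of these shifts in the results below was not tested. In RNA of a whole tissue, fewer cells of a type and less RNA per cell cannot be told apart.

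Csf1 and 5 receptor genes fell in livers of Rk2-treated mice, by 2.10-fold for Csf1 to 5.53-fold for Csf2rb2. All 6 of the 6 genes tested passed the threshold in the lower direction, against 11.4% of all tested genes, or 14.6% in either direction. The same 6 were lower at an adjusted p below 0.05 alone (23.7% of all genes), and in each of them every Rk2 liver lay below every vehicle liver (30.3% of all genes). Their median log2FC was -2.10, with a range from -2.47 to -1.07. Flt3 had too few counts to be tested. Summed over the 7 genes, normalised counts were 192 to 225 CPM in vehicle livers and 43.7 to 80.2 CPM in Rk2 livers.

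**Figure D1:**
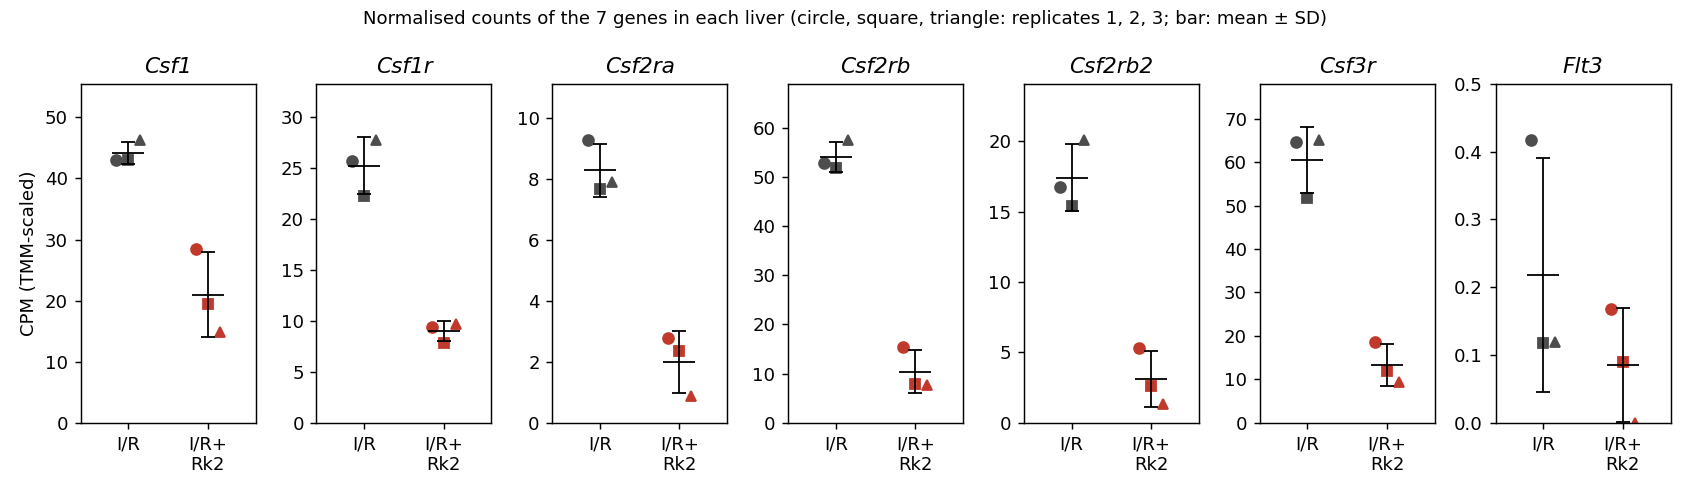
Normalised counts (CPM, TMM-scaled, y axis starting at 0 with its own range in each panel) of the 7 genes in the 3 vehicle livers (grey) and the 3 Rk2 livers (red), with marker shapes for replicates 1, 2 and 3 and bars for the mean ± SD. The groups do not overlap in the 6 tested genes, and Flt3, at 0 to 0.417 CPM, overlaps between them.

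Csf1 encodes macrophage colony-stimulating factor, the main survival factor of tissue macrophages, and lies on the minus strand of chromosome 3 at 107741048 to 107760469 (mm10). It had 43.1, 43.1 and 46.3 CPM in vehicle replicates 1 to 3 and 28.5, 19.5 and 14.8 CPM in Rk2 replicates 1 to 3. The vehicle livers were close to each other, while the treated livers spread over nearly a doubling, and the highest of them stayed below every vehicle liver. The mean went from 44.1 ± 1.85 to 20.9 ± 6.96 CPM (SD, n = 3), a log2FC of -1.07 (SE 0.22, edgeR FDR = 0.00747). Csf1 had the smallest change of the 6 genes and was the only one of them to miss the fold limit in any alternative analysis. Without I/R+Rk2 replicate 3, its lowest liver, the log2FC was -0.88 (edgeR FDR = 0.0123).

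Csf1r, the receptor for that ligand, lies on the plus strand of chromosome 18 at 61100598 to 61132149 (mm10). Its level was 25.7, 22.2 and 27.7 CPM in the vehicle livers and 9.37, 7.85 and 9.70 CPM in the Rk2 livers. Here the treated livers were tightly grouped, and replicate 3, the lowest treated liver for Csf1 and for the other receptors tested, was the highest. The mean fell from 25.2 ± 2.78 to 8.97 ± 0.991 CPM, a log2FC of -1.50 (SE 0.14, edgeR FDR = 0.000506). In the annotation 873 exon bases of Csf1r (15.1%) lie opposite exons of Hmgxb3, and whether the counting used strand is not given in the sources used here. Hmgxb3, named after its values were seen, had 20.0 ± 2.24 CPM in vehicle livers and 12.1 ± 2.05 CPM in Rk2 livers, a log2FC of -0.72 (SE 0.15, edgeR FDR = 0.00925).

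Csf3r, the G-CSF receptor, lies on the plus strand of chromosome 4 at 126024550 to 126044440. It reached 64.6, 51.7 and 65.1 CPM in vehicle livers, the highest mean of the 7 genes in CPM (Csf2rb was marginally above it in replicate 2), and 18.6, 11.8 and 9.27 CPM in Rk2 livers. Even the highest treated liver was far below the lowest vehicle liver. The mean went from 60.5 ± 7.61 to 13.2 ± 4.83 CPM, a log2FC of -2.19 (SE 0.25, edgeR FDR = 0.00101) and a 4.55-fold fall.

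All GM-CSF receptor genes fell. Csf2ra, the ligand-specific alpha chain, lies on the minus strand of chromosome 19 at 61223957 to 61228429 and had 9.28, 7.69 and 7.89 CPM in vehicle livers against 2.77, 2.34 and 0.860 CPM in Rk2 livers. Replicate 3 of the treated group, with 14 counts, lay well below the other two. Its mean went from 8.29 ± 0.866 to 1.99 ± 1.0 CPM, a log2FC of -2.01 (SE 0.35, edgeR FDR = 0.0042). Csf2rb, the beta chain common to the GM-CSF, IL-3 and IL-5 receptors, lies on the plus strand of chromosome 15 at 78325752 to 78353847. It had 52.9, 52.0 and 57.6 CPM in vehicle livers and 15.5, 7.90 and 7.74 CPM in Rk2 livers. Treated replicate 1 was thus about double the other two, which were alike. The mean went from 54.2 ± 2.99 to 10.4 ± 4.42 CPM, a log2FC of -2.38 (SE 0.27, edgeR FDR = 0.000953). Csf2rb2, a mouse beta chain used by IL-3 alone, lies on the minus strand of the same chromosome at 78282507 to 78305721. Its 16.8, 15.4 and 20.1 CPM in vehicle livers compared with 5.30, 2.63 and 1.35 CPM in Rk2 livers. These 3 treated livers spread more, relative to their mean, than those of any other tested gene of the family. The mean went from 17.4 ± 2.40 to 3.09 ± 2.01 CPM, a log2FC of -2.47 (SE 0.41, edgeR FDR = 0.00338), and the log2FC was -3.07 without I/R+Rk2 replicate 1.

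Csf2rb and Csf2rb2 are neighbouring paralogs, 20030 bases apart on opposite strands, so reads could have been split between them in the deposited counts. Their coding sequences have 2688 and 2634 bases, and 2503 of 2628 aligned bases were identical (95.2%). Of all stretches of 50 bases in the Csf2rb coding sequence, 26.0% also occur without a mismatch in Csf2rb2, and of those of 100 bases 11.0%. The most and the least alike stretches of 90 coding bases, read from the mm10 genome along the GENCODE M21 transcripts, show where a read can and cannot tell the genes apart, with the differing bases in capitals. In the most alike stretch (coding bases 662 to 751 of Csf2rb and 665 to 754 of Csf2rb2, across an intron, at chr15:78340783-78341361 on the plus strand and chr15:78291948-78292526 on the minus strand) both genes read the same.
Csf2rb and Csf2rb2, most alike: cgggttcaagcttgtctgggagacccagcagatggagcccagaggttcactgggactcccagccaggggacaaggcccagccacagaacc
In the least alike stretch, 16 of 90 bases differ (coding bases 308 to 397 of Csf2rb at chr15:78338897-78338986 on the plus strand, and 311 to 400 of Csf2rb2 at chr15:78294345-78294434 on the minus strand).
Csf2rb, least alike: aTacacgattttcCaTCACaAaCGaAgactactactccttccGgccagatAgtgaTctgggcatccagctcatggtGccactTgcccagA
Csf2rb2, least alike: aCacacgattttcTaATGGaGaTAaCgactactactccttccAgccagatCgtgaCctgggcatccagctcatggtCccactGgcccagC
With both rows summed, the log2FC was -2.41 (edgeR FDR = 0.00126). That is the fall of the pair, and how much of it belongs to each gene cannot be told apart where reads are shared.

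Since 6 of the genes fell together, the windows upstream of their transcription starts were searched on both strands for 5 short motifs of myeloid and inflammatory factors. RefSeq promoters (GRCm38.p6, the mm10 assembly), each of 300 bases with 250 upstream, were matched for 5 of the 7 genes, and Csf1r and Csf2rb were not among them. The motif GGGNNNNNCC, a relaxed form of the NF-kB site, matched 5 times in the Csf1 window, 3 times in Csf3r and 2 times in Csf2ra, and occurs in 50.8% of all 32851 promoters of that length. GAGGAA, the core recognised by the myeloid ETS factor PU.1, matched 2 times each in Csf2rb2 and Csf2ra and 1 time in Csf3r, and occurs in 28.3% of promoters. TTGCNNAA (C/EBP, 10.8% of promoters), TGTGGT (RUNX, 16.8%) and TGANTCA (AP-1, 7.81%) had 0 matches in the 5 windows, and Flt3 had 0 of any motif. The upstream parts of Csf1, the gene with the most NF-kB matches, and of Csf2rb2 are shown 5′ to 3′ with the matches in capitals. Csf2rb2 had the lowest log2FC, -2.47 beside -2.38 for Csf2rb, an order that reversed without I/R+Rk2 replicate 3 (-2.15 and -2.22). The matches are 4 of NF-kB in Csf1 (of which a pair overlap) at chr3:107760470-107760719 on the minus strand and 1 of PU.1 in Csf2rb2 at chr15:78305722-78305971 on the minus strand. Neither stretch holds both motifs, and the bases downstream of the start are left out.
Csf1 upstream: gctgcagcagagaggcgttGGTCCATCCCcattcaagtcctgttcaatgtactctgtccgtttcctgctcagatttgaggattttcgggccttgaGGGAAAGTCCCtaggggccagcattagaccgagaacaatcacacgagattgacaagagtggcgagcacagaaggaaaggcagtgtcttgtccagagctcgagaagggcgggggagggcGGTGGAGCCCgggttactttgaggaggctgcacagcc
Csf2rb2 upstream: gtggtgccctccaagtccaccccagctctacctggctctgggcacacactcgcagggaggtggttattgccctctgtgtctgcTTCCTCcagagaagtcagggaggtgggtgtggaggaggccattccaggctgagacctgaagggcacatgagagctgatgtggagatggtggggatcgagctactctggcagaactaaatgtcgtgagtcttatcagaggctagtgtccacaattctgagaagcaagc
A match describes letters of the window and not a site that was shown to be bound.

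Flt3, on the minus strand of chromosome 5 at 147330741 to 147400489, was near the detection limit. It had 8, 3 and 3 counts in vehicle livers (0.417, 0.117 and 0.120 CPM) and 4, 3 and 0 counts in Rk2 livers (0.168, 0.0888 and 0 CPM). The groups overlapped, most livers were at or near 3 counts, and no difference was detectable at this depth. Dendritic cell markers, from cells that depend on FLT3, were also sparse, and 4 of 8 were abundant enough to be tested. Their summed level was 7.38 to 12.1 CPM in vehicle livers and 3.78 to 5.12 CPM in Rk2 livers. Of the 4 tested, 3 fell past the threshold, against 11.4% of all tested genes lower. Wdfy4 was at a log2FC of -1.89 (edgeR FDR = 0.0325) and Cd209a at -2.11 (edgeR FDR = 0.0393). These calls rested on few counts and single livers, since Wdfy4 kept its call in 9 and Cd209a in 8 of the 15 alternatives that tested them. Zbtb46, the remaining tested marker and named after its values were seen, overlapped between groups. It had 3.30 ± 0.812 CPM in vehicle livers and 2.83 ± 0.656 CPM in Rk2 livers (log2FC -0.22, edgeR FDR = 0.534). Xcr1 and Clec9a, the defining markers of cross-presenting dendritic cells and named after their values were seen, were not tested, with 0.162 ± 0.0458 and 0.244 ± 0.155 CPM in vehicle livers and 0.0815 ± 0.0707 and 0.0690 ± 0.0628 CPM in Rk2 livers. Clec10a and Siglech, likewise named and not tested, had 0.793 ± 0.383 and 0.144 ± 0.158 CPM in vehicle livers. In Rk2 livers Clec10a was at 0.199 ± 0.217 CPM and Siglech, higher there, at 0.308 ± 0.282 CPM.

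To compare levels between genes, FPKM (fragments per kilobase of transcript and 1000000 mapped fragments) was used, which accounts for transcript length. In vehicle livers the order was Csf3r (21.5 ± 3.33 FPKM), Csf1 (13.9 ± 0.616), Csf2rb (11.3 ± 0.729), Csf1r (5.33 ± 0.699), Csf2ra (4.46 ± 0.767), Csf2rb2 (3.74 ± 0.481) and Flt3 (0.0574 ± 0.0551). The ranges of Csf1r and Csf2ra and of Csf2ra and Csf2rb2 overlapped. Within single livers each gene was above the next in all 3, except that Csf2ra was above Csf2rb2 in 2. In Rk2 livers Csf1 came first (5.36 ± 2.21 FPKM), followed by Csf3r (4.66 ± 2.51), Csf2rb (1.95 ± 0.891), Csf1r (1.69 ± 0.184), Csf2ra (0.958 ± 0.500), Csf2rb2 (0.600 ± 0.409) and Flt3 (0.0211 ± 0.0210). There the ranges of the first 4 genes overlapped from one neighbour to the next, as did those of Csf2ra and Csf2rb2. Within each treated liver, though, Csf1 was above Csf3r in all 3, whereas in each of the 3 vehicle livers it was below. In Rk2 replicate 1 the 2 genes were nearly equal, at 7.44 FPKM for Csf1 and 7.29 FPKM for Csf3r.

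The make-up of the family's transcripts shifted accordingly. Their summed level was 65.7, 53.4 and 61.8 FPKM in the vehicle livers and 22.0, 14.6 and 9.15 FPKM in the Rk2 livers. Csf1 took 22.2%, 25.1% and 22.3% of that sum in vehicle livers and 33.9%, 38.3% and 33.3% in Rk2 livers, without overlap. The share of Csf2rb went from 18.8 ± 0.790% to 12.9 ± 2.65% and that of Csf2rb2 from 6.20 ± 0.430% to 3.65 ± 1.04%. For Csf3r the share was 35.6 ± 1.97% and 29.5 ± 4.17%. Csf1r held 8.82 ± 0.298% in vehicle livers and 12.6 ± 5.95% in Rk2 livers, where replicate 3 alone reached 19.4%.

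**Figure D2:**
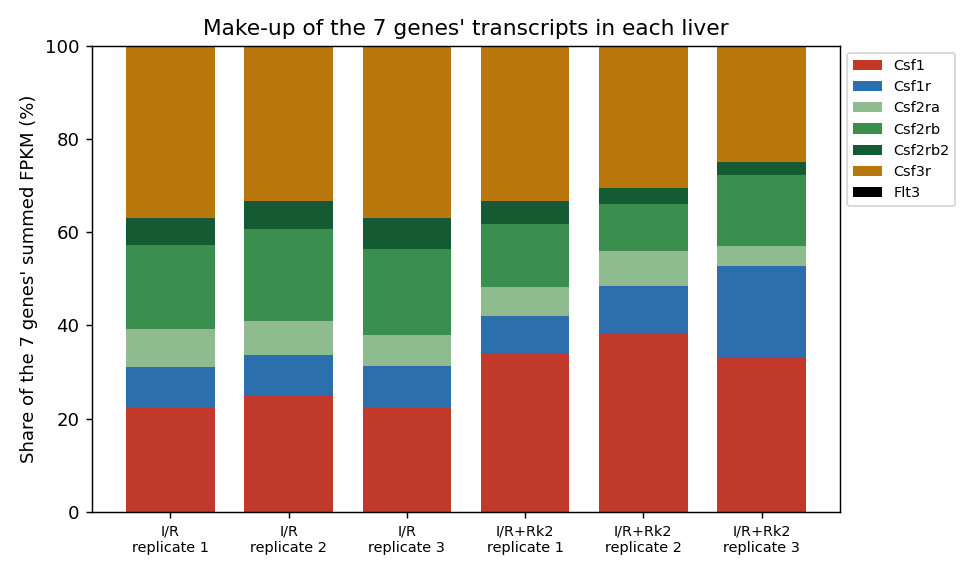
Share of each gene (%, y axis from 0 to 100) in the summed FPKM of the 7 genes in each of the 6 livers, with 1 bar per liver. Csf1 makes up 22.2% to 25.1% of the sum in the vehicle livers and 33.3% to 38.3% in the Rk2 livers, and Flt3 is too low to be seen.

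Whether the genes moved by unequal amounts was examined with 7 ratios of FPKM within each liver, compared between groups by an exact two-sided permutation test whose smallest p with 3 against 3 livers is 0.1. No ratio could therefore pass 0.05. The log2 ratio of Csf2rb to Csf1r was 1.02, 1.21 and 1.03 in vehicle livers and 0.71, -0.01 and -0.34 in Rk2 livers, without overlap. The beta chain was thus about double the level of Csf1r in each vehicle liver and close to it in Rk2 replicates 2 and 3, with replicate 1 in between (difference -0.97, exact permutation p = 0.1, adjusted over the 7 ratios 0.35). The log2 ratio of the ligand Csf3 to its receptor Csf3r was -3.11, -2.60 and -2.93 in vehicle livers and -2.47, -2.28 and -0.83 in Rk2 livers, again without overlap (difference 1.02, exact permutation p = 0.1, adjusted 0.35). Without I/R+Rk2 replicate 3 that difference was 0.50. The log2 ratio of Csf1 to Csf1r overlapped between groups, with 1.39 ± 0.15 in vehicle livers and 1.58 ± 0.69 in Rk2 livers (difference 0.19, exact permutation p = 0.8, adjusted 0.80). Csf2ra to Csf2rb differed by 0.24 and Csf2rb2 to Csf2rb by -0.25 on the log2 scale, with exact permutation p = 0.7 and 0.8. The ratio of Csf3r to Csf1r differed by -0.70 with overlap (exact permutation p = 0.2, adjusted 0.47), by -0.75 without overlap when CPM replaced FPKM, and by -0.22 without I/R+Rk2 replicate 3. That ratio of Csf3r to Csf2rb differed by 0.27 (exact permutation p = 0.5). CPM and FPKM were not proportional for Csf3r and Csf1. Relative to the median gene of each library and to the I/R mean, CPM per FPKM moved by -0.27, -0.24 and 0.31 (log2) in Rk2 replicates 1 to 3 for Csf3r and by 0.14, -0.03 and 0.39 for Csf1. In I/R+Rk2 replicate 3 the middle 90% of 9851 genes ran from -0.36 to 0.42.

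The other ligands and receptors of the family, and the kinases and cytokine receptors closest to it, held further genes that fell. Of 12 genes listed, 8 were tested, and 5 fell past the threshold while 0 rose, against 11.4% of all tested genes lower. Their median log2FC was -1.27, against -0.01 for all genes. Csf3 encodes G-CSF, and it had 3.70, 4.33 and 4.46 CPM in vehicle livers and 2.06, 1.45 and 2.15 CPM in Rk2 livers. Its groups did not overlap, and the log2FC of -1.16 (SE 0.22, edgeR FDR = 0.00597) was smaller than the -2.19 of its receptor. Without I/R+Rk2 replicate 2 and with log2(FPKM + 1), Csf3 no longer passed the fold limit (log2FC of -0.85 at the weakest). Kitl, the stem cell factor that binds KIT, went from 2.52 ± 0.448 to 0.440 ± 0.228 CPM, a log2FC of -2.58 (SE 0.44, edgeR FDR = 0.0038). The platelet-derived growth factor receptors, kinases of the same structural class as CSF1R and typical of mesenchymal cells, also fell. Pdgfra went from 10.7 ± 0.851 to 2.29 ± 1.15 CPM (log2FC -2.21, SE 0.31, edgeR FDR = 0.00197) and Pdgfrb from 9.73 ± 0.969 to 3.75 ± 0.838 CPM (log2FC -1.39, SE 0.20, edgeR FDR = 0.002).

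Several further genes of that list were chosen after their values were seen because each pairs with one of the receptors above. Csf2, the GM-CSF ligand, had 6, 14 and 19 counts in the vehicle livers and 0 in each Rk2 liver. It was too sparse for the test, and its I/R mean of 0.539 CPM was at least 4.05-fold higher than the 0.133 CPM for which 3 counts per treated library stand on average. Il34, the second ligand of CSF1R, had 44, 58 and 44 counts in vehicle livers and 0, 11 and 7 in Rk2 livers (log2FC -3.08, SE 0.68, edgeR FDR = 0.0102). By contrast, Flt3l, the ligand of FLT3, had 1.15, 0.820 and 1.20 CPM in vehicle livers and 1.60, 2.78 and 1.84 CPM in Rk2 livers, with no overlap (log2FC 0.99, SE 0.31, edgeR FDR = 0.0368). That is just under the fold limit, and Flt3l was past it in 6 of 18 alternative analyses, where its adjusted p over all alternatives ran from 0.0290 to 0.139. Kit had a log2FC of -0.77 (edgeR FDR = 0.0261) and Il3ra, the IL-3 receptor alpha chain, one of -0.21 (edgeR FDR = 0.654).

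Downstream of the receptors, JAK and SRC-family kinases pass the signal to STAT factors. Among 16 listed signalling genes, 8 fell past the threshold while 0 rose, against 11.4% of all tested genes lower. The median of the 16 was -0.94 (log2). Tyrobp, the adaptor that couples myeloid receptors to SYK, went from 34.7 ± 2.37 to 9.05 ± 1.85 CPM (log2FC -1.94, SE 0.16, edgeR FDR = 0.000366). The myeloid SRC-family kinase gene Fgr fell by 7.62-fold, with an edgeR FDR of 0.000707. Jak2, the kinase bound to the common beta chain, went from 29.4 ± 4.61 to 14.1 ± 1.81 CPM (log2FC -1.06, edgeR FDR = 0.00227), close to the fold limit, and missed it when vehicle replicate 3 or Rk2 replicate 1 was left out and with log2(FPKM + 1), being -0.95 at the weakest. The STAT5 genes, the usual readers of GM-CSF signals and named here after their values were seen, did not pass, with log2FC values of 0.19 for Stat5a (edgeR FDR = 0.178) and 0.70 for Stat5b (edgeR FDR = 0.0478). Stat5b overlapped between groups, and its adjusted p ran from 0.00436 to 0.146 over the alternatives. Stat3, named in the same way, was lower without overlap but under the fold limit, from 195 ± 8.55 to 115 ± 10.4 CPM (log2FC -0.76, edgeR FDR = 0.00123).

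Inhibitors of the pathway, which the receptors themselves induce or recruit, also held genes that fell. All 8 listed genes were tested, 4 passed the threshold in the lower direction (11.4% of all tested genes) and the median was -0.92 (log2). The ubiquitin ligase gene Cbl, whose product removes activated CSF1R from the surface, went from 30.4 ± 3.03 to 11.1 ± 2.28 CPM (log2FC -1.45, SE 0.17, edgeR FDR = 0.000982). Socs1 and Cish, feedback inhibitors of JAK and STAT signalling, fell by 3.17-fold and 2.23-fold (edgeR FDR of 0.00147 and 0.00393). Inpp5d, the lipid phosphatase SHIP1 of blood cells, went from 11.4 ± 2.54 to 3.44 ± 1.85 CPM (log2FC -1.69, SE 0.40, edgeR FDR = 0.0127).

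Transcription factors that direct myeloid cell formation moved in both directions. Of 11 listed, 9 were tested, and 2 fell and 1 rose past the threshold (14.6% of all tested genes in either direction). The median was -0.42 (log2). Spi1, which encodes PU.1, went from 16.4 ± 2.45 to 4.50 ± 1.31 CPM (log2FC -1.86, SE 0.22, edgeR FDR = 0.00113). Runx1 went from 6.47 ± 0.985 to 0.751 ± 0.332 CPM (log2FC -3.04, SE 0.32, edgeR FDR = 0.000767). Cebpe, a factor of late granulocyte maturation, had 1.98, 2.38 and 2.03 CPM in vehicle livers and 3.62, 5.60 and 4.30 CPM in Rk2 livers (log2FC 1.08, SE 0.22, edgeR FDR = 0.00804). It rose while the granulocyte receptor Csf3r fell, and its rise missed the fold limit with library size alone, in the 3 analyses of FPKM and without I/R+Rk2 replicate 2 (log2FC of 0.63 at the weakest).

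**Figure D3:**
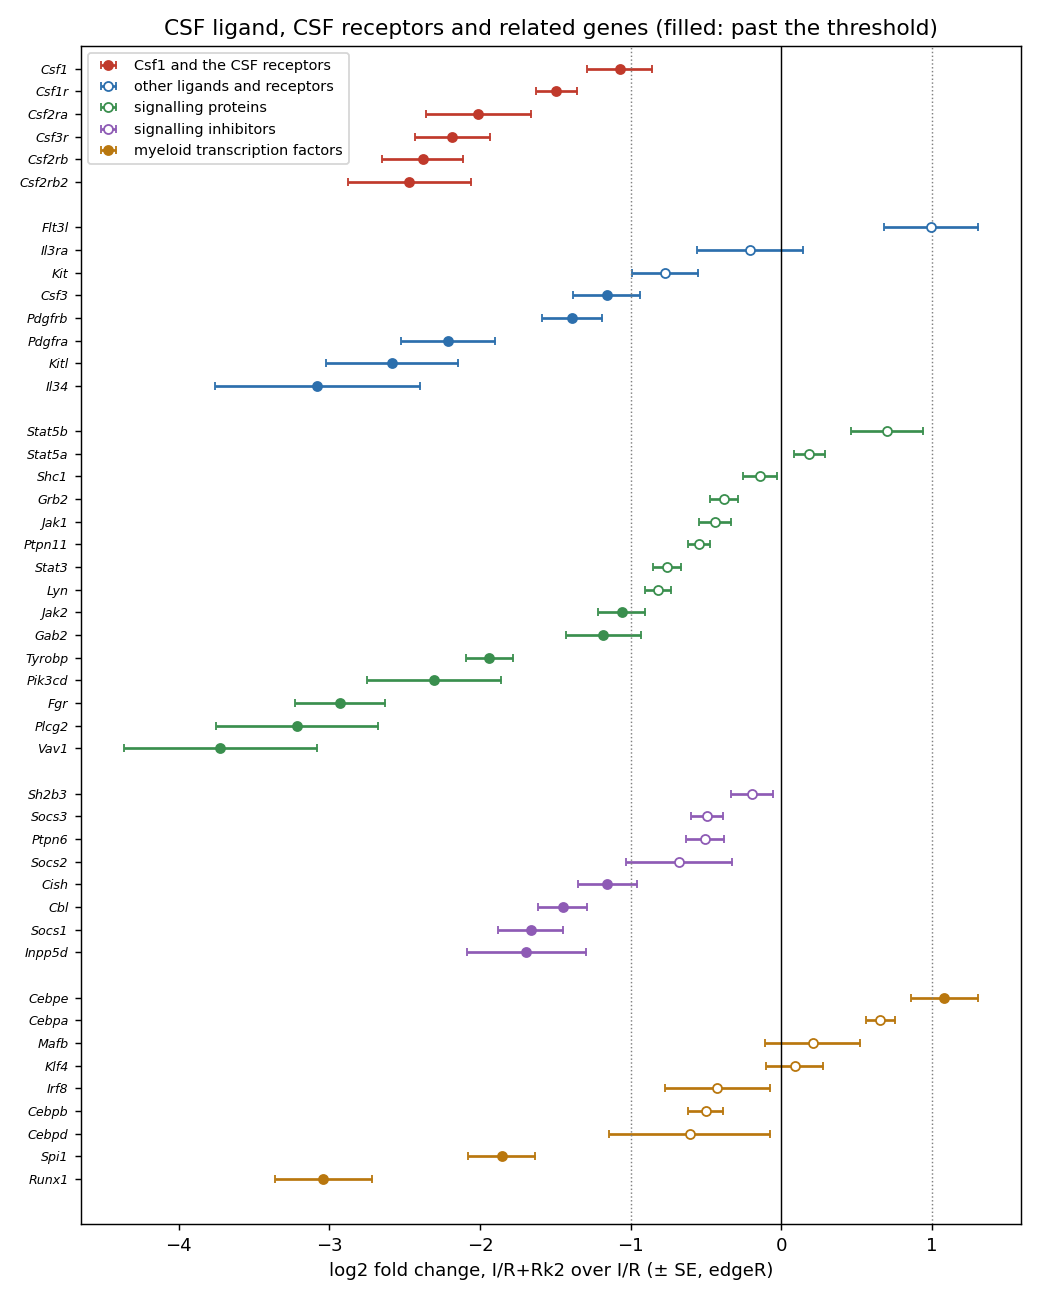
Log2 fold change (x axis, I/R+Rk2 over I/R) with its SE from edgeR for Csf1 and the CSF receptors tested and for the tested genes reported here from 4 related lists, with filled points for genes past the threshold and dotted lines at a log2FC of -1 and 1. The 6 genes in red lie between -2.47 and -1.07, and Cebpe, at 1.08, is the one filled point on the higher side.

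Because the receptors are carried by particular blood and tissue cells, marker genes of those cells were read beside them. The share of all tested genes that were lower past the threshold was 11.4%. All 8 monocyte markers fell, with a median log2FC of -4.34, and their summed level was 182 to 214 CPM in vehicle livers and 10.4 to 17.7 CPM in Rk2 livers. Ccr2, the receptor that draws monocytes from bone marrow, went from 14.2 ± 1.02 to 0.658 ± 0.127 CPM (log2FC -4.41, edgeR FDR = 0.000131) and Vcan from 26.7 ± 3.64 to 0.576 ± 0.246 CPM (log2FC -5.61, edgeR FDR = 0.000212). Of 12 neutrophil markers, 10 were tested, 8 fell past the threshold and the median was -2.03. Their summed level was 527 to 640 CPM in vehicle livers and 99.7 to 236 CPM in Rk2 livers, and the members with the smallest p were Trem1 (log2FC -2.79, edgeR FDR = 0.000296) and Clec4d (-2.47, edgeR FDR = 0.000458). Of 8 Kupffer cell markers, 0 passed the threshold, with a median of -0.43 and a summed level of 207 to 255 CPM in vehicle livers and 177 to 270 CPM in Rk2 livers. The 2 with the smallest p were Cd5l (log2FC -0.97, edgeR FDR = 0.0114), past the threshold in 5 of 18 alternatives, and Timd4 (-0.67, edgeR FDR = 0.06). C6, which hepatocytes also make, held most of the Kupffer sum, at 159 ± 16.3 and 168 ± 45.3 CPM, and Clec4f, the defining Kupffer gene, was at 16.9 ± 1.65 and 15.4 ± 2.23 CPM, both named after their values were seen. Without C6, an alternative chosen after seeing the data, the other 7 Kupffer markers summed to 65.4, 51.6 and 82.3 CPM in vehicle livers and 50.3, 40.8 and 38.1 CPM in Rk2 livers, lower without overlap, with a median log2FC of -0.67 and 0 past the threshold. Of the 8 Kupffer markers, 3 were lower without overlap, against 30.3% of all tested genes. Clec4f, Vsig4 and Folr2 overlapped between groups, with log2FC values of -0.13, -0.19 and -0.004 (edgeR FDR of 0.474, 0.453 and 0.989). Vsig4 and Folr2 were also named after their values were seen. Monocyte and neutrophil markers moved with the CSF receptors, and the part of these cell types in the changes was not tested.

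Liver by liver, Csf1r and Csf3r ordered the treated group differently. Set against the I/R mean, Csf3r was at -1.70, -2.36 and -2.70 (log2 of CPM) in Rk2 replicates 1 to 3, beside -1.33, -2.23 and -2.58 for the summed neutrophil markers. S100a9 and S100a8, named after their values were seen, held the largest parts of that neutrophil sum. They had 202 ± 22.9 and 150 ± 24.3 CPM in vehicle livers and 49.1 ± 19.3 and 36.8 ± 19.8 CPM in Rk2 livers. Csf2rb, at -1.81, -2.78 and -2.81, and Csf2rb2, at -1.72, -2.73 and -3.69, had their highest liver in replicate 1 as well. Csf1r was at -1.43, -1.69 and -1.38, between the Kupffer markers without C6 at -0.40, -0.70 and -0.80 (0.26, -0.29 and -0.35 with C6) and the monocyte markers at -3.47, -4.24 and -3.91.

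**Figure D4:**
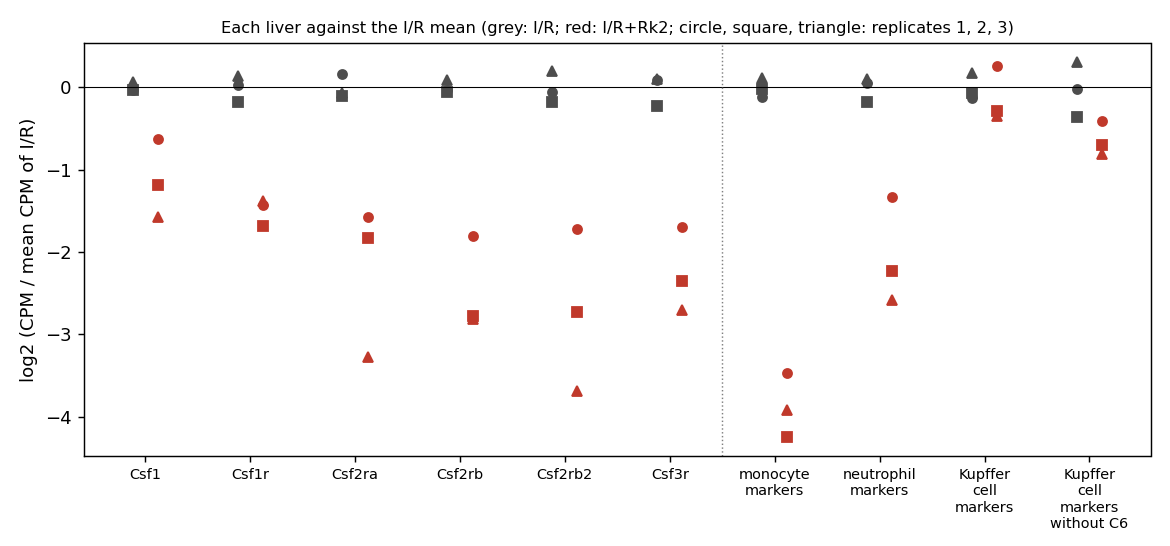
Log2 ratio of each liver's CPM to the I/R mean (y axis) for the 6 tested genes and for the summed CPM of monocyte, neutrophil and Kupffer cell markers, the last with and without C6, with vehicle livers in grey, Rk2 livers in red and marker shapes for replicates 1, 2 and 3. Monocyte markers are lowest, at -4.24 to -3.47 in the treated livers, and Kupffer cell markers are at -0.35 to 0.26 with C6 and at -0.80 to -0.40 without it.

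The genes whose pattern over the 6 livers was most like that of each family member were found among 9166 tested genes with a mean of at least 100 counts, by Pearson r of log2(CPM + 1). For Csf3r these were Themis2 (r = 0.9997) and Myh9 (0.999), and for Csf2rb they were Siglece (0.999), an inhibitory receptor of neutrophils, and Thbs1 (0.999). Csf2rb2 was followed most closely by Sema4d (0.998) and Plekhm2 (0.997), and Csf2ra by Hspa1a (0.998) and Gla (0.998). For Csf1 they were Plekhm2 (0.998) and the neutrophil chemokine receptor Cxcr2 (0.998), and for Csf1r Ahnak (0.999) and Vasp (0.998). With 2 groups of 3 livers such values mainly record the difference between groups, and between 629 and 1039 genes per family member had an r above 0.95.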

How the data were processed

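Liver RNA of 6 mice was sequenced, 3 in each group, and groups were taken from the labels. The authors aligned the reads and assembled expression values, and the submitters' processing notes name FastQC 0.11.5, HISAT2 2.2.1 and StringTie 1.3.3 and the build mm10, while neither annotation nor strand setting is given in the sources used here. The deposited counts per gene are whole numbers without normalization, in 15454 rows. StringTie derives such counts from estimated coverage, so 1 alternative reduced each count above 0 by 1. The deposited FPKM values, in 21948 rows, were normalized by the authors for transcript length and depth.

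The whole count table was analysed in R 4.3.3 with edgeR 4.0.16 (filterByExpr, TMM scaling, quasi-likelihood F test without covariates, Benjamini-Hochberg adjustment over 12411 genes). The threshold (edgeR FDR under 0.05, more than 2-fold) is that of the study. SE is the absolute log2 fold change divided by the square root of F. The study used DESeq2. Alternatives were scaling by relative log expression, by the upper quartile or by library size alone, dropping the filter, requiring at least 10 counts in every library, DESeq2 1.42.0, limma 3.58.1 (voom, or log2(FPKM + 1) or log2(FPKM + 0.1) for genes averaging 1 FPKM or more, or log2(FPKM + 1) with no filter), the reduced counts, the replicate number as a block, and leaving out each liver. The fits were tested on simulated data. Coding sequences of Csf2rb and Csf2rb2 were aligned with Biopython 1.88.

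The 7 genes, the gene lists and the tests were chosen with earlier results of these data known. Named genes were the 7 genes, the genes past the threshold in each related list (the 4 with the smallest p where more passed), the 2 with the smallest p of each marker list and the 2 of most similar pattern per gene. A gene that this rule selects is not reported here, though it stayed in every test and count. Any other gene is said to be named after its values were seen. Libraries of a group differed by far more than sampling noise (chi-square per degree of freedom 31.4 to 74.8), so each was counted as 1 replicate. Limits from 3 counts take in counting error alone, as PCR copies do not count as separate molecules, and the labels do not state whether the 3 mice of a group shared a litter or an operation day, so p-values measure the spread between these livers.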

Additional observations from a re-analysis of the deposited data

How the results depend on the processing

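Over 18 alternatives, 5 or 6 of the 6 tested genes of the family were past the threshold, and 6 had an adjusted p below 0.05 in each. The exception was Csf1 without I/R+Rk2 replicate 3, given above. Log2FC values ran from -1.45 to -0.88 for Csf1, -1.66 to -1.23 for Csf1r, -2.29 to -1.50 for Csf2ra, -2.80 to -2.10 for Csf2rb, -3.07 to -1.59 for Csf2rb2 and -2.52 to -1.99 for Csf3r, and Csf2rb2 was at -1.59 on the compressed log2(FPKM + 1) scale. Csf2rb and Csf2rb2 summed stayed between -2.87 and -2.20. With each liver left out, differences in log2 ratio ran from -1.27 to -0.74 for Csf2rb to Csf1r, 0.50 to 1.32 for Csf3 to Csf3r, -1.04 to -0.22 for Csf3r to Csf1r, -0.04 to 0.58 for Csf1 to Csf1r, -0.11 to 0.59 for Csf2ra to Csf2rb, -0.42 to 0.07 for Csf2rb2 to Csf2rb and 0.08 to 0.52 for Csf3r to Csf2rb.

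Related lists moved more. Other ligands and receptors past the threshold numbered 3 with at least 10 counts in every library, 1 with limma on log2(FPKM + 1), 2 on the same scale with no filter, and 5 to 7 with each liver left out. Signalling genes numbered 4 with log2(FPKM + 1), 5 with log2(FPKM + 0.1), 4 with log2(FPKM + 1) and no filter, and 7 to 8 with each liver left out. Transcription factors numbered 1 with log2(FPKM + 1) and 1 with log2(FPKM + 0.1), and 2 to 4 with each liver left out, while inhibitors numbered 4 throughout. Filters on FPKM or on counts in every library leave fewer of these sparse genes to test. With log2(FPKM + 1) and no filter, though, other ligands and signalling genes numbered 2 and 4, beside 1 and 4 with the filter. The cause of the lower numbers was not tested. Over all genes, 1813 passed, against 901 with limma on log2(FPKM + 1) and 921 with that scale and no filter. With library size alone the median of all genes moved to -0.17 and the split was 1795 lower and 246 higher, against 1420 and 393.

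The replicate numbers did not pair the samples: deviations from the group means correlated by -0.0313, 0.0477 and -0.0243 for the same-numbered livers. With the replicate block, 1690 genes passed and 6 of the 6 family genes remained past the threshold, with Csf2rb and Csf2rb2 summed at -2.49 (edgeR FDR = 0.0058), and no call on a family gene changed. Depth limits Flt3 and Csf2, which had 0 to 19 counts per library.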

Other observations

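Markers of cells that are not known for most of these receptors were read as well. T and NK cell markers summed to 0.365 to 0.518 CPM in vehicle livers and 0.737 to 0.859 CPM in Rk2 livers, and B cell markers to 0.261 to 0.957 and 0.983 to 1.26 CPM. None of their genes had enough counts for the edgeR test. Markers of eosinophils, basophils and mast cells, which carry the IL-3 and IL-5 receptors, summed to 0.429 to 0.757 CPM in vehicle livers and 0 to 0.0841 CPM in Rk2 livers, and 0 of the 5 were tested.

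Of 7 endothelial markers 1 fell past the threshold (11.4% of all tested genes) and 0 rose, with a median log2FC of 0.30. Their smallest p belonged to Lyve1 (log2FC -0.84, edgeR FDR = 0.00107) and Clec4g (0.97, edgeR FDR = 0.00134), both sinusoidal genes, which moved in opposite directions below the fold limit. Of 7 stellate cell markers 1 fell past the threshold and 6 were lower, with a median of -0.24. Summed, they were at 198 to 260 CPM in vehicle livers and 150 to 151 CPM in Rk2 livers, without overlap. The gene with the smallest p was Ecm1 (-1.03, edgeR FDR = 0.00284), a call that was lost in 7 of 18 alternatives. Of 5 cholangiocyte markers 1 fell past the threshold, with a median of -0.61, and this was Spp1 (-1.20, edgeR FDR = 0.00296), osteopontin, which macrophages also make. Cholangiocyte markers summed to 164 to 230 CPM in vehicle livers and 83.8 to 117 CPM in Rk2 livers, also without overlap. Of 5 hepatocyte markers 1 rose past the threshold, as did 393 of all 12411 tested genes, and the median was 0.54. The marker that rose was Ttr (1.06, edgeR FDR = 0.00132), a call that 12 of 18 alternatives kept.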
